A study of Mus musculus with 32 samples.

Results

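The gene set described here comprised 39 interferon-stimulated genes, chosen by name as genes whose transcripts rise when cells receive type I interferon. Their levels were read in 8 groups of 4 RNA-seq libraries of mouse blood-forming cells. The table held 27179 genes, and all 39 members had enough counts to be tested in every comparison. No member was at 0 in any library.

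Type I interferons are secreted proteins that bind the receptor of Ifnar1 and Ifnar2, whose kinases Jak1 and Tyk2 start the signal inside the cell. Stat2 and Irf9 are subunits of the factor ISGF3, which binds the interferon-stimulated response element (ISRE) in promoters and switches on antiviral genes. In bone marrow, acute interferon is known to drive quiescent stem cells into cycle, and lasting interferon signalling reduces their fitness. The members were ordered by role into signalling factors, the ISG15 and PARP ubiquitin systems, nucleic acid sensors, RNA and nucleotide effectors, GTPases and tetherin, and a remainder of other interferon-stimulated genes.

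The study asked what the loss of Hbo1 (Kat7), which supplies the catalytic activity of a histone acetyltransferase complex, does in hematopoietic stem cells. It used 16 adult C57BL/6 mice, each giving 1 library of LSK cells (lineage-negative, Sca-1 and Kit positive marrow cells, the fraction with stem cells) and 1 of progenitor cells, for which the labels describe no gate. The Mx1Cre knockouts were Hbo1fl/fl;Mx1Cre with both alleles deleted, and the Mx1Cre controls were Hbo1fl/+;Mx1Cre with 1 allele deleted. The CreER knockouts were Hbo1fl/fl;CreER with both alleles deleted, and the CreER controls were Hbo1fl/+;CreER with 1 allele deleted. Each Mx1Cre group held 2 females and 2 males, and each CreER group 3 females and 1 male. All mice carried a Cre and received its inducer. Mx1-Cre is driven by the promoter of an interferon-stimulated gene and was induced with polyIC, a double-stranded RNA mimic that raises interferon, while RosaCreERT2 is expressed from a broadly active locus and was activated with tamoxifen. The Cre line, its inducer and the mouse cohort therefore cannot be told apart in any comparison of Mx1Cre with CreER mice. The time between induction and harvest is not given in the sources used here. Titles and design call the controls heterozygous, while the treatment protocol calls them wild type.

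Libraries held 7275277 to 18409271 counts, with a median of 12207444. Kat7 had 0 to 1.65 CPM (counts relative to library size, after TMM normalization of all libraries together) in the 16 knockout libraries, against 39.6 to 78.0 CPM in the control libraries. In 2 libraries, LSK CreER knockouts 2 and 3, sex-linked transcripts went against the labelled sex, and the progenitor libraries of these mice did not. Progenitor Mx1Cre control 1 and knockout 4 stood apart in how counts fell with exon length. Without the first pair 38 members were called lower between the Cre lines in LSK controls and 38 in LSK knockouts, as with it. Without the second pair 36 were called lower and 1 higher in progenitor controls, as with it, and 37 lower in progenitor knockouts in place of 38. LSK markers separated LSK from progenitor control libraries, with 9 of 10 higher in LSK cells, and 9 of 9 progenitor markers were lower. Over all tested genes 34.5% were called between these controls, 17.3% higher in LSK cells. All values are from bulk RNA, so a smaller share of expressing cells and less RNA per cell cannot be told apart.

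Promoters of 4 members are shown because they carry the ISRE and bracket the range of responses described next: Ifit1, Ifit3 and Isg15 were among the members with the largest differences between the Cre lines, and Gbp3 was the 1 member not called lower in Mx1Cre controls in either population. Each sequence runs 5′ to 3′ on the gene's strand from 250 bases before to 50 bases after the RefSeq start (GRCm38.p6, mm10), and capitals mark matches to the ISRE pattern, GAAA and GAAA with 2 free bases between them, on either strand, which may overlap. Ifit1, on the plus strand at chr19:34640639-34640938, and Ifit3, on the plus strand at chr19:34583279-34583578, held 2 matches each. Isg15, on the minus strand at chr4:156200769-156201068, held 3 overlapping matches, and Gbp3, on the plus strand at chr3:142559794-142560093, held 2 overlapping matches in the window of the first of its annotated starts.
Ifit1: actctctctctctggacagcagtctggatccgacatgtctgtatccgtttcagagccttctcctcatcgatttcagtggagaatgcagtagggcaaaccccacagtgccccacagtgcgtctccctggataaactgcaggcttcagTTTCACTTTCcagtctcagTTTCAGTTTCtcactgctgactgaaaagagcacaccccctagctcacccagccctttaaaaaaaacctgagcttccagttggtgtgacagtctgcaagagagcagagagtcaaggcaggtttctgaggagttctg
Ifit3: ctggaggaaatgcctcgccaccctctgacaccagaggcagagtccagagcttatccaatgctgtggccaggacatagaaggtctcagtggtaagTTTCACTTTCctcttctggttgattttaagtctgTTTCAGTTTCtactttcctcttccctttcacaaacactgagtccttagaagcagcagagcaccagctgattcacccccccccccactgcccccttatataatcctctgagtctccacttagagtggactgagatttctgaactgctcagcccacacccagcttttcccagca
Isg15: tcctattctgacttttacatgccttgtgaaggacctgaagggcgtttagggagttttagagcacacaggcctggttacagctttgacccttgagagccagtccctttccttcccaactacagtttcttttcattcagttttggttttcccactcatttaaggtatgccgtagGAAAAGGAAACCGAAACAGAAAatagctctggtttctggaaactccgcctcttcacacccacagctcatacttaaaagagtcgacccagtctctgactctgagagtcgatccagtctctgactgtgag
Gbp3: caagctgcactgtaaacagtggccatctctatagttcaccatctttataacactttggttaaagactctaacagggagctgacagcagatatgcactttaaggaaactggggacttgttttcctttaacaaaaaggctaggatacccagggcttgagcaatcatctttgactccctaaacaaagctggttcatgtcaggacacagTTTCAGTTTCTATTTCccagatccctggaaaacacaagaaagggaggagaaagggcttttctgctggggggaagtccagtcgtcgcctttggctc

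A promoter was matched in RefSeq for 28 of the 39 members. A gene with several annotated starts was counted once, as holding a motif if any of its windows did. The ISRE pattern was found in 14 of these 28 promoters (50.0%), against 1079 of 27025 genes (3.99%). The 14 were Bst2, Eif2ak2, Gbp2, Gbp3, Ifi203, Ifih1, Ifit1, Ifit3, Isg15, Oas1a, Oas3, Rsad2, Stat2 and Trim30a. The GAS (gamma-activated site) pattern TTCNNNGAA was found in 5 of 28 (17.9%), against 2582 of 27025 genes (9.55%). The median log2 difference between Mx1Cre and CreER controls was -1.88 for the 14 with the ISRE pattern and -1.75 for the 14 without it in LSK cells, and -1.71 and -1.95 in progenitor cells. A match is a string of letters in the window and was not tested as a binding site.

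Ligand transcripts were scarce. Of 10 interferon ligand genes, Ifnb1 had the most counts over the 32 libraries, 28 in all with at most 10 in 1 library, followed by Ifng with 16, and Ifne, Ifnl2 and Ifnl3 had none. Receptor and kinase genes were mostly higher in Mx1Cre than in CreER controls: in LSK cells 6 of 9 were called higher and none lower, and in progenitor cells 5 of 9 were higher and none lower. Of all tested genes, 21.7% were called in either direction in LSK cells and 25.1% in progenitor cells, where 14.3% were higher. Log2 differences are given ± their standard error. Ifnar2 was higher by 0.51 ± 0.07 on the log2 scale in LSK cells (adjusted p = 8.04e-05, edgeR quasi-likelihood test with Benjamini-Hochberg adjustment) and by 0.80 ± 0.12 in progenitor cells (adjusted p = 0.000302). Irf8, needed for monocytes and dendritic cells to develop, was higher in Mx1Cre controls by 1.59 ± 0.20 in LSK and 1.87 ± 0.24 in progenitor cells.

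The largest difference over the 39 members lay between the Cre lines. Summed over the members, LSK cells had 1274 to 1492 CPM in Mx1Cre controls and 3979 to 6590 CPM in CreER controls, and progenitor cells had 1111 to 1430 CPM in Mx1Cre controls and 3281 to 5576 CPM in CreER controls. The sums did not overlap between the lines, and the knockouts showed the same order: 1156 to 1360 CPM in LSK Mx1Cre knockouts against 3429 to 5574 CPM in LSK CreER knockouts, and 916 to 1176 CPM in progenitor Mx1Cre knockouts against 2760 to 4206 CPM in progenitor CreER knockouts. The sum is weighted toward abundant members. Per kilobase of exon, Bst2 had the highest level in LSK CreER controls at 417 RPKM (CPM divided by exon length in kilobases), ahead of Lgals3bp at 246 and Irf7 at 168 RPKM, and Mx2 the lowest at 10.9 RPKM.

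**Figure D1:**
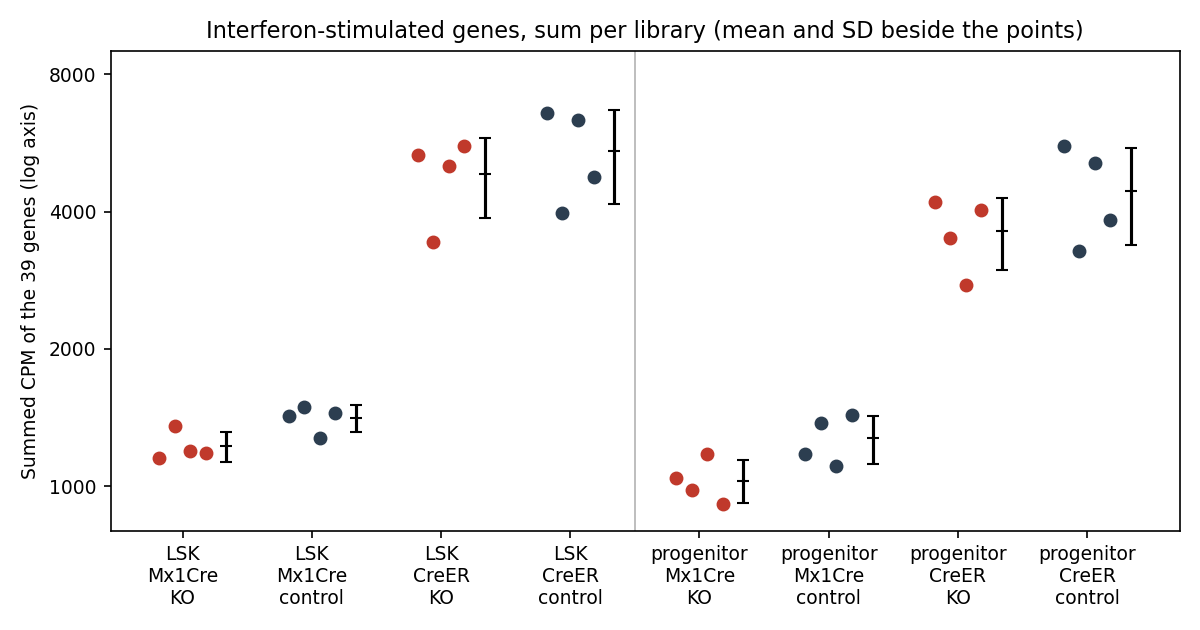
Summed CPM of the 39 members in each of the 32 libraries, by group and cell population, on a log axis that does not start at 0. Points are libraries, and the mark beside them is the group mean with its standard deviation. LSK Mx1Cre controls sit between 1274 and 1492 CPM, below all LSK CreER controls at 3979 to 6590 CPM.

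In LSK cells 38 of the 39 members were called lower in Mx1Cre than in CreER controls and none higher, against 21.7% of all 14102 tested genes called in either direction and 10% called lower. The members' log2 differences ran from -6.06 to -0.08, with a median of -2.09. In progenitor cells 36 were lower and 1 was higher, against 25.1% of 13692 genes called, 10.9% lower and 14.3% higher, and the median was -1.98. For 38 members in LSK cells and 36 in progenitor cells, all 4 Mx1Cre controls lay below all 4 CreER controls, as did 15% and 13.3% of all tested genes. The CreER mean was over 10 times the Mx1Cre mean for 14 members in LSK controls and for 11 in progenitor controls. The same comparison among knockouts, added after the data were seen and made on separate mice, gave 38 lower in LSK cells (27.9% of genes called, 14.7% lower) and 38 lower in progenitor cells (23.6% called, 10.8% lower).

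By role, the median difference between the controls was smallest for the signalling factors, at -0.86 in LSK and -0.91 in progenitor cells with 3 of 3 lower in both. It was largest for the RNA and nucleotide effectors, at -3.40 and -2.92 with 11 of 11 lower in both. The ISG15 and PARP ubiquitin systems lay between, at -1.60 and -1.81 (6 of 6 lower in both), as did the nucleic acid sensors at -2.09 and -2.00 (5 of 5 lower in LSK, 4 of 5 in progenitor cells). GTPases and tetherin had medians of -1.92 and -1.76 (4 of 5 lower in both), and the other members -1.83 and -1.91 (9 of 9 and 8 of 9 lower).

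**Figure D2:**
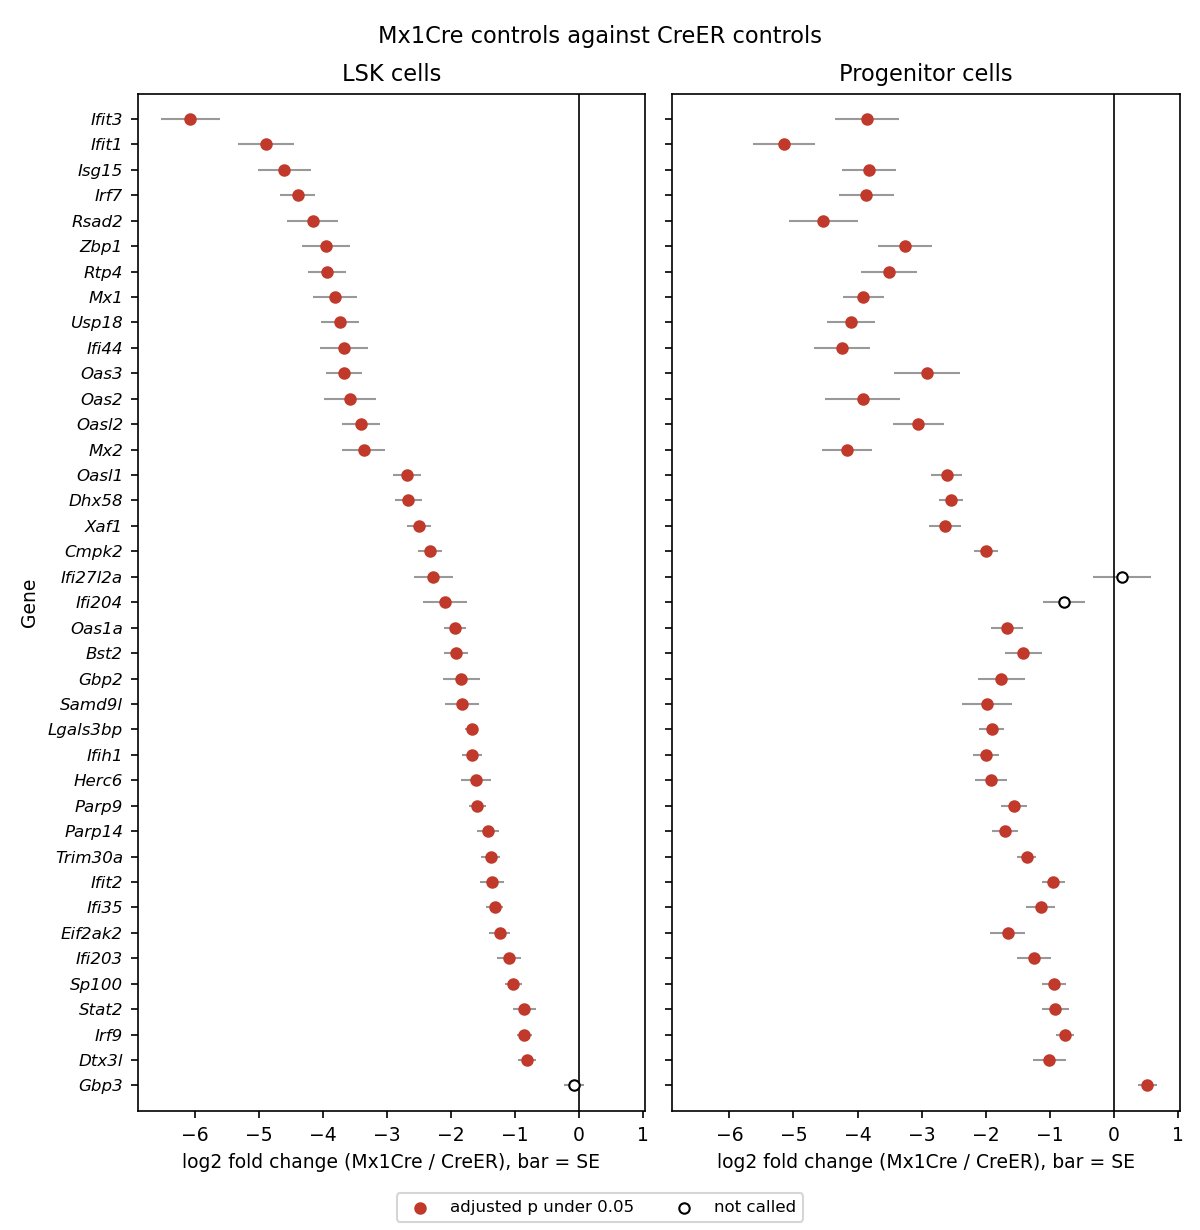
Log2 difference of each member between Mx1Cre and CreER controls in LSK cells and progenitor cells, ordered by the LSK value; bars are standard errors, filled points have an adjusted p under 0.05 and open points do not. In LSK cells the values run from -6.06 for Ifit3 to -0.08 for Gbp3, and in progenitor cells Gbp3 is the single member called higher, at 0.52.

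Among the signalling factors, Irf7, the factor that amplifies interferon alpha production, moved most. It had 14.8, 14.0, 10.6 and 19.0 CPM in LSK Mx1Cre controls 1 to 4, against 414, 213, 354 and 268 CPM in LSK CreER controls. All CreER controls lay far above all Mx1Cre controls, and the log2 difference was -4.39 ± 0.27 (edgeR adjusted p = 2.21e-07). Progenitor cells had 14.1, 11.2, 6.26 and 24.9 CPM in Mx1Cre controls against 287, 132, 228 and 181 CPM in CreER controls, a difference of -3.86 ± 0.43 (edgeR adjusted p = 2.86e-05). Irf9, the DNA-binding subunit of ISGF3, differed far less. It had 65.8, 71.3, 54.3 and 62.2 CPM in LSK Mx1Cre controls and 121, 108, 119 and 117 CPM in LSK CreER controls, with no overlap and a difference of -0.85 ± 0.12 (edgeR adjusted p = 4.94e-05). Stat2 was lower by a similar amount, -0.86 ± 0.18 in LSK cells (edgeR adjusted p = 0.0031).

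Of the ISG15 system, Isg15, the ubiquitin-like modifier itself, had 6.78, 3.06, 3.49 and 5.54 CPM in LSK Mx1Cre controls, against 147, 61.0, 176 and 83.4 CPM in LSK CreER controls. Usp18, which removes ISG15 from proteins and restrains receptor signalling, had 10.3, 7.92, 5.69 and 8.91 CPM in LSK Mx1Cre controls against 145, 71.8, 144 and 84.9 CPM in LSK CreER controls. Neither gene had an Mx1Cre control near a CreER control, and the log2 differences were -4.60 ± 0.41 (edgeR adjusted p = 6.44e-06) and -3.74 ± 0.30 (edgeR adjusted p = 1.24e-06). Progenitor cells gave 8.49, 3.80, 2.88 and 6.98 CPM of Usp18 in Mx1Cre controls against 132, 65.5, 118 and 71.7 CPM in CreER controls, a difference of -4.10 ± 0.37 (edgeR adjusted p = 6.42e-06). Dtx3l, a ubiquitin ligase that works with Parp9, had the smallest difference of this role in LSK cells, -0.82 ± 0.14. Dtx3l and Parp9 overlap on chromosome 16 and may share counts.

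Among the effectors, Ifit1, which binds foreign RNA caps, had 4.96, 4.08, 2.03 and 3.56 CPM in LSK Mx1Cre controls against 148, 61.3, 151 and 80.8 CPM in LSK CreER controls. Its progenitor levels were 2.70, 2.28, 1.00 and 3.45 CPM in Mx1Cre controls against 134, 50.1, 103 and 55.5 CPM in CreER controls. The control groups were far apart in both populations, by -4.88 ± 0.43 on the log2 scale in LSK cells (edgeR adjusted p = 6.14e-06) and -5.14 ± 0.48 in progenitor cells (edgeR adjusted p = 6.72e-06). Ifit3, its neighbour on chromosome 19, had 1.24, 0.470, 0.569 and 0.528 CPM in LSK Mx1Cre controls, which rest on 17, 6, 7 and 8 counts, against 58.2, 25.1, 78.0 and 31.9 CPM in LSK CreER controls. With so few counts its difference of -6.06 ± 0.46 (edgeR adjusted p = 8.65e-07) is less exact than those of abundant members, and reads may be shared with the paralog Ifit3b. Ifit2, from the same cluster, differed less: it had 32.2, 35.9, 28.3 and 26.2 CPM in LSK Mx1Cre controls and 104, 59.7, 93.6 and 61.7 CPM in LSK CreER controls, a difference of -1.36 ± 0.18 (edgeR adjusted p = 6.26e-05). Oasl1, of the oligoadenylate synthetase-like family, differed by -2.69 ± 0.21 in LSK cells (edgeR adjusted p = 5.27e-07) and by -2.61 ± 0.24 in progenitor cells (edgeR adjusted p = 6.71e-06). Dhx58, the RNA helicase LGP2 of the sensor role, had the lowest adjusted p in progenitor cells, at a difference of -2.54 ± 0.18 (edgeR adjusted p = 1.5e-06).

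Mx1, an antiviral GTPase whose gene is defective in C57BL/6 mice, had 5.40, 5.25, 5.04 and 6.07 CPM in LSK Mx1Cre controls against 89.8, 41.3, 114 and 63.6 CPM in LSK CreER controls. Progenitor cells had 2.33, 5.49, 3.63 and 3.63 CPM in Mx1Cre controls against 78.8, 27.6, 70.9 and 49.4 CPM in CreER controls. No control of one line reached the other, and the differences were -3.80 ± 0.34 in LSK cells (edgeR adjusted p = 3.76e-06) and -3.91 ± 0.32 in progenitor cells (edgeR adjusted p = 3.47e-06). Gbp3, a guanylate-binding protein, went another way. It had 105, 111, 97.6 and 102 CPM in LSK Mx1Cre controls and 119, 79.4, 155 and 89.8 CPM in LSK CreER controls, which overlapped (difference -0.08 ± 0.16, edgeR adjusted p = 0.778). In progenitor cells it had 140.5, 133, 109 and 131 CPM in Mx1Cre controls and 96.6, 67.2, 115 and 80.5 CPM in CreER controls, where 1 CreER control lay in the Mx1Cre range (difference 0.52 ± 0.15, edgeR adjusted p = 0.0177). Without progenitor CreER control 2 or without control 4 this call was lost, with adjusted p up to 0.0621. Its promoter, printed above, holds the ISRE pattern.

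Of the other members, Lgals3bp, a secreted galectin-binding glycoprotein, had 168, 174, 152 and 168 CPM in LSK Mx1Cre controls against 611, 467, 537 and 521 CPM in LSK CreER controls. These are narrow, separate ranges, and its difference of -1.67 ± 0.10 had the lowest adjusted p of all members in LSK cells (6.76e-09, edgeR). Xaf1, a pro-apoptotic factor, had 12.5, 11.1, 8.69 and 10.2 CPM in LSK Mx1Cre controls and 71.7, 46.5, 69.9 and 55.9 CPM in LSK CreER controls, again without overlap (difference -2.50 ± 0.19, edgeR adjusted p = 2.38e-07). Beside the 36 lower members, 2 were not called in progenitor cells: the sensor Ifi204 at -0.78 ± 0.32 (edgeR adjusted p = 0.0917) and the small membrane protein gene Ifi27l2a at 0.13 ± 0.45 (edgeR adjusted p = 0.855). Ifi203 and Ifi204 are close paralogs and may share counts.

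**Figure D3:**
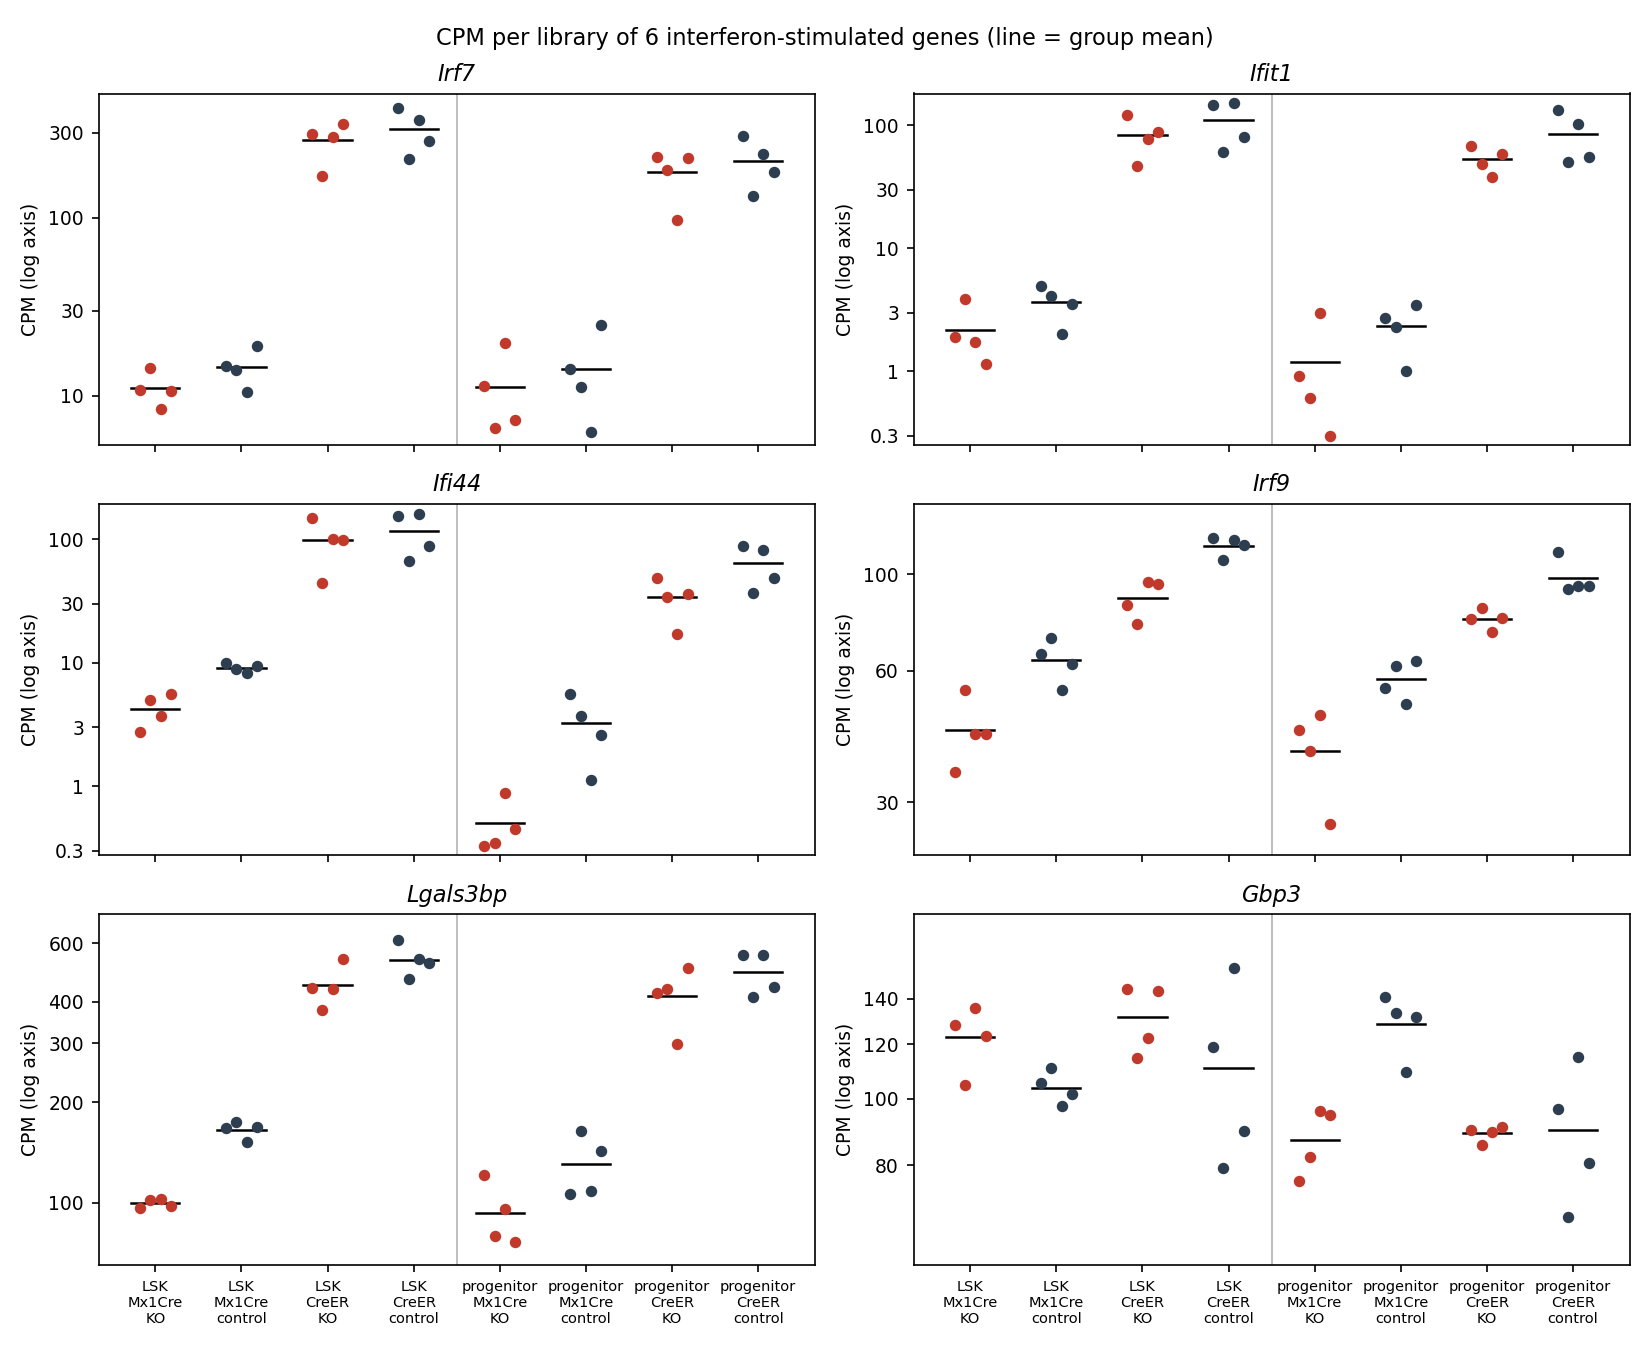
CPM of Irf7, Ifit1, Ifi44, Irf9, Lgals3bp and Gbp3 in every library, on log axes, by group and cell population; points are libraries and lines are group means. Irf7 lies between 10.6 and 19.0 CPM in LSK Mx1Cre controls and between 213 and 414 CPM in LSK CreER controls, while the Gbp3 groups overlap in LSK cells.

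Markers of other cells moved with the Cre line. Of 10 monocyte and macrophage markers 7 were called higher in LSK and 8 in progenitor Mx1Cre controls, and of 10 neutrophil markers 9 and 10, with none lower. Over all tested genes 21.7% were called in LSK and 25.1% in progenitor cells, in either direction. Summed over the monocyte and macrophage markers, LSK cells had 2013 to 2377 CPM in Mx1Cre controls against 519 to 1144 CPM in CreER controls, and progenitor cells had 4047 to 6626 CPM in Mx1Cre controls against 884 to 1868 CPM in CreER controls. Summed over the neutrophil markers, LSK cells had 429 to 2545 CPM in Mx1Cre controls against 117 to 194 CPM in CreER controls, and progenitor cells had 1252 to 15922 CPM in Mx1Cre controls against 310.3 to 706 CPM in CreER controls. Plasmacytoid dendritic cells are strong interferon producers, and their markers other than the member Bst2 summed to 592 to 706 CPM in LSK Mx1Cre controls against 290.1 to 371 CPM in LSK CreER controls. Their defining marker Siglech averaged 2.90 CPM in LSK Mx1Cre controls against 0.427 CPM in LSK CreER controls, and 0.155 CPM in progenitor Mx1Cre controls against 1.24 CPM in progenitor CreER controls. In progenitor cells these markers summed to 587 to 842 CPM in Mx1Cre controls against 221 to 358 CPM in CreER controls. B cell markers summed to 31.9 to 68.7 CPM in LSK Mx1Cre controls against 23.96 to 32.01 CPM in LSK CreER controls, and to 30.9 to 51.2 CPM in progenitor Mx1Cre controls against 18.002 to 29.4 CPM in progenitor CreER controls. T and NK cell markers summed to 182 to 208 CPM in LSK Mx1Cre controls against 144 to 175 CPM in LSK CreER controls, and to 276 to 456 CPM in progenitor Mx1Cre controls against 164 to 248 CPM in progenitor CreER controls. Of the 5 T and NK markers tested in LSK cells, Nkg7 and Cd3d were called higher in Mx1Cre controls and Lck lower, by -0.85 ± 0.21 (edgeR adjusted p = 0.00693). Of the 9 plasmacytoid markers tested there, Bst2 included, 4 were called higher and 1, Bst2 itself, lower. The sums were higher in Mx1Cre controls, where the members were lower, apart from 1 overlapping B cell value in LSK cells, and their part in the result was not tested. Ly6a, which encodes Sca-1, is both an LSK sorting marker and an interferon-stimulated gene, and had a difference of -2.29 ± 0.27 between the LSK controls (edgeR adjusted p = 3.49e-05).

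Between knockouts and controls the members differed by smaller amounts than between the Cre lines. Over the mean of both lines, 7 members were called lower and none higher in LSK knockouts (17.9% of members, against 27.8% of genes called and 14.3% called lower), so the share was near that of all genes. The median log2 change was -0.27, and 32 of 39 members had a negative value, against 48.7% of all genes. Progenitor knockouts had 8 members lower and none higher (20.5% of members, against 7.76% of genes called and 5.5% called lower), with a median of -0.37 and 34 of 39 values negative. In Mx1Cre mice 5 members were called lower in LSK cells, 12.8% of members against 30.9% of genes called and 15.8% called lower. That share was near that of all genes. In progenitor cells of this line 8 were called lower, 20.5% of members against 6.09% of genes called and 4.49% called lower. In CreER mice the edgeR test called none in either population. Unadjusted p under 0.05 were seen for 2 members in LSK and 8 in progenitor cells, DESeq2 called 1 and 0, and limma-voom 0 and 0 (3.23% and 0.168% of genes called by edgeR). In LSK cells 1 CreER call appeared without Mx1Cre knockout 1 or without Mx1Cre knockout 2. The LSK Mx1Cre count was 9 lower and 1 higher without LSK CreER control 2 or without LSK Mx1Cre knockout 2, and 8 lower without LSK CreER knockout 2. The progenitor Mx1Cre count was 3 without Mx1Cre control 4 or without knockout 1, 4 without control 2 or without knockout 2, and 5 without knockout 4.

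The difference between the lines in the knockout effect was itself not called for any member. In LSK cells 2 members had an unadjusted p under 0.05, DESeq2 called 1 and limma-voom 0 (4.45% of genes called by edgeR). Progenitor cells had 4 members with an unadjusted p under 0.05, and DESeq2 and limma-voom called 0 (0.299% of genes called by edgeR). The lowest adjusted p in LSK cells was that of Lgals3bp, whose effect differed by -0.49 ± 0.14 (edgeR adjusted p = 0.0523). Without LSK CreER control 1, LSK Mx1Cre control 3, LSK CreER knockout 2 or LSK Mx1Cre knockout 2, 1 member was called in LSK cells. The knockout effects of the lines use separate control libraries, but each shares its controls with the comparison of the Cre lines among controls.

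**Figure D4:**
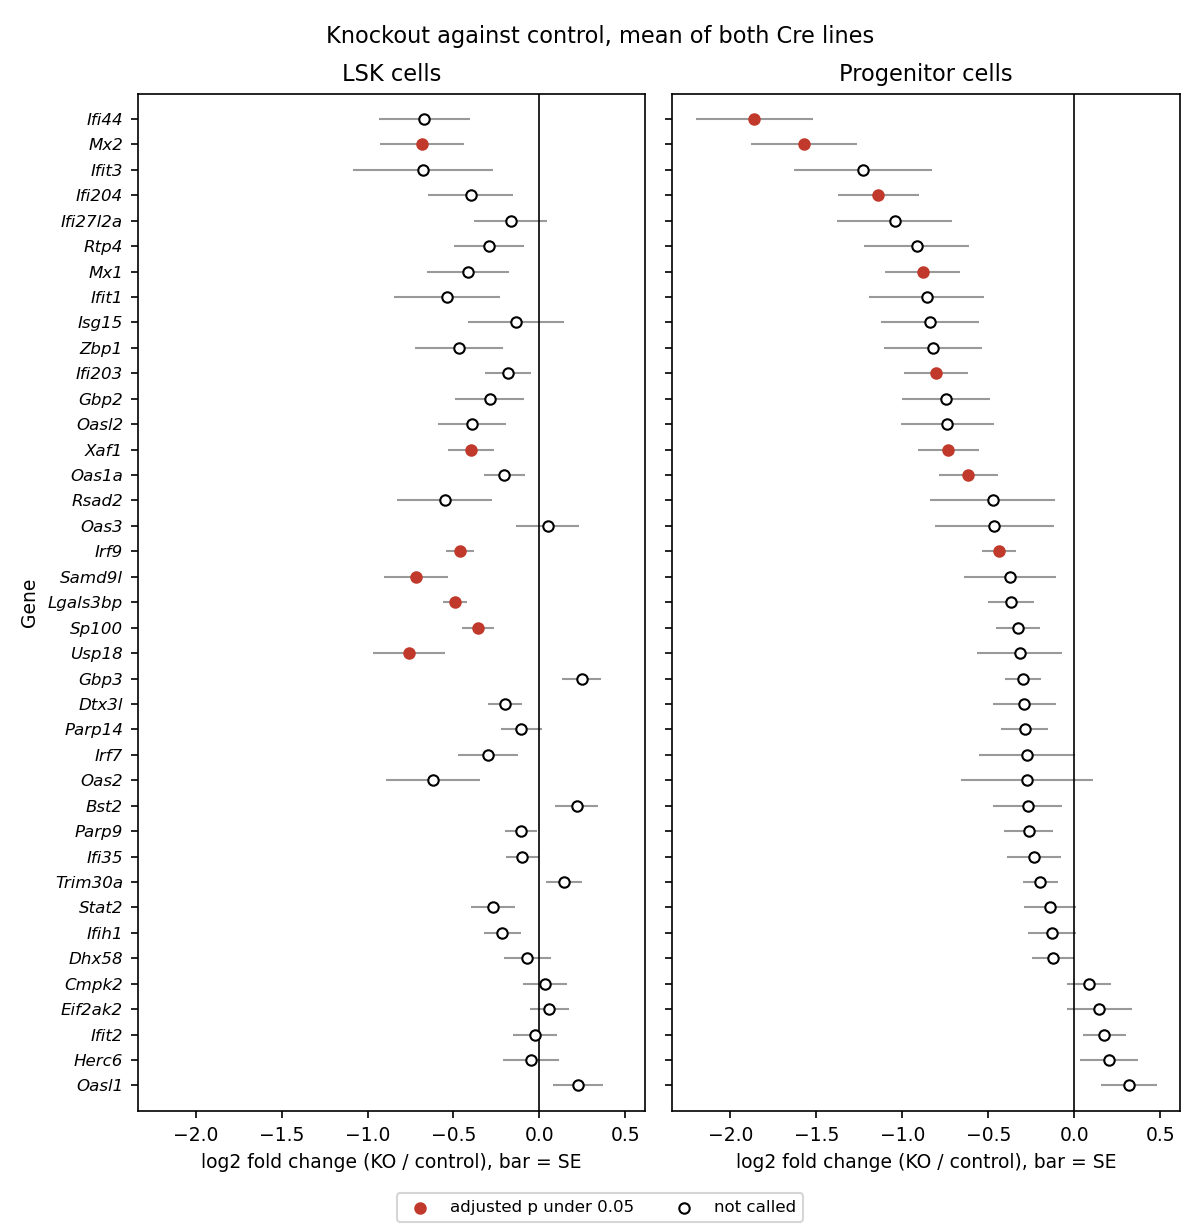
Log2 change of each member in knockout over control, mean of both Cre lines, in LSK cells and progenitor cells, ordered by the progenitor value; bars are standard errors, filled points have an adjusted p under 0.05 and open points do not. The 7 filled points in LSK cells and the 8 in progenitor cells all lie below 0.

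In LSK cells Lgals3bp and Irf9 had the lowest adjusted p. Lgals3bp had 96.4, 102, 103 and 97.7 CPM in Mx1Cre knockouts against 168, 174, 152 and 168 CPM in Mx1Cre controls, and 441, 379, 438 and 538 CPM in CreER knockouts against 611, 467, 537 and 521 CPM in CreER controls. Knockouts and controls were far apart in the Mx1Cre line and overlapped in the CreER line, and the change was -0.49 ± 0.07 over both (edgeR adjusted p = 4.82e-05), -0.74 ± 0.10 in Mx1Cre and -0.25 ± 0.10 in CreER mice. Irf9 had 35.2, 54.3, 42.9 and 43.1 CPM in Mx1Cre knockouts against 65.8, 71.3, 54.3 and 62.2 CPM in Mx1Cre controls. It had 84.9, 76.9, 95.8 and 95.2 CPM in CreER knockouts against 121, 108, 119 and 117 CPM in CreER controls. All knockouts lay below all controls in both lines, narrowly in Mx1Cre mice, and Irf9 was the only member of the 39 for which this held in LSK CreER mice, where it held for 5.21% of all tested genes. Irf9 fell by 0.46 ± 0.08 over both lines (edgeR adjusted p = 0.000403), with -0.53 ± 0.12 in Mx1Cre (adjusted p = 0.00244) and -0.39 ± 0.11 in CreER mice (adjusted p = 0.0659).

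For 10 members all 4 LSK Mx1Cre knockouts lay below all 4 Mx1Cre controls, as they did for 15% of all tested genes. For Oasl1 and Bst2 they lay above, neither called, as they did for 14.5% of all tested genes. Samd9l, which restrains growth and viral replication, had 12.5, 27.0, 15.2 and 18.9 CPM in LSK Mx1Cre knockouts against 38.6, 38.7, 37.3 and 50.8 CPM in Mx1Cre controls, and 128, 67.0, 149.8 and 145 CPM in CreER knockouts against 208, 119.7, 133 and 134 CPM in CreER controls. The Mx1Cre groups were separate and the CreER groups overlapped, with a change of -0.72 ± 0.19 over both lines (edgeR adjusted p = 0.0104). Sp100, a component of PML nuclear bodies, had 59.9, 61.0, 58.5 and 59.9 CPM in Mx1Cre knockouts against 83.3, 85.4, 74.2 and 82.5 CPM in Mx1Cre controls. The knockouts were tightly grouped below the controls, the CreER groups (162, 113, 125 and 159 CPM in knockouts and 194, 131, 199.97 and 149 CPM in controls) overlapped, and the change over both was -0.36 ± 0.09 (edgeR adjusted p = 0.008). These calls for Lgals3bp, Irf9, Samd9l and Sp100 were made again in all 25 alternative fits.

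The other 3 calls in LSK cells were less firm. Usp18 had 2.27, 3.38, 5.48 and 4.24 CPM in Mx1Cre knockouts against 10.3, 7.92, 5.69 and 8.91 CPM in Mx1Cre controls, and 103, 59.0, 71.3 and 98.9 CPM in CreER knockouts against 145, 71.8, 144 and 84.9 CPM in CreER controls. The Mx1Cre knockouts all lay below their controls, and the change over both lines was -0.76 ± 0.21 (edgeR adjusted p = 0.014). Without the 2 CreER knockout libraries whose sex-linked transcripts went against their labels, the adjusted p of Usp18 was 0.0546 and 4 of 39 members were called in place of 7. Xaf1 changed by -0.40 ± 0.13 (edgeR adjusted p = 0.0335) and Mx2 by -0.68 ± 0.25 (edgeR adjusted p = 0.0464). Of the fits that left out 1 library, Xaf1 lost the call in some and Mx2 in most, with edgeR adjusted p up to 0.0711 for Xaf1 and 0.126 for Mx2. Neither was called by limma-voom or without both of those CreER knockout libraries. Mx2 was also not called without a filter, with sex as a covariate or with a replicate block. The nearest member not called was Ifi44 at -0.67 ± 0.27 (edgeR adjusted p = 0.0758). Among the members with a large Cre line difference, Isg15 was at -0.13 ± 0.28 and Irf7 at -0.30 ± 0.17, neither called (edgeR adjusted p = 0.759 and 0.221).

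In progenitor cells Ifi44, an interferon-induced antiviral protein, showed the lowest adjusted p. It had 0.326, 0.347, 0.882 and 0.448 CPM in Mx1Cre knockouts, resting on 5, 4, 8 and 3 counts, against 5.56, 3.72, 1.13 and 2.61 CPM in Mx1Cre controls. The CreER levels were 48.2, 33.9, 17.0 and 36.4 CPM in knockouts and 88.0, 37.0, 81.8 and 48.7 CPM in controls. The Mx1Cre groups were separate at a very low level and the CreER groups almost so, with 1 knockout inside the control range. Ifi44 fell by 1.86 ± 0.34 over both lines (edgeR adjusted p = 0.00259), with -2.79 ± 0.57 in Mx1Cre (adjusted p = 0.00709) and -0.93 ± 0.37 in CreER mice (adjusted p = 0.502). Limma-voom did not call Ifi44 (adjusted p = 0.0617 over both lines and 0.191 in Mx1Cre mice). Without progenitor Mx1Cre control 1 and knockout 4, 5 members were called in Mx1Cre mice in place of 8, with adjusted p of 0.0574 for Ifi44, 0.0764 for Xaf1 and 0.0768 for Oas1a there. Over both lines the same 8 members were called without these libraries.

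Mx2, the second Mx GTPase, had 0.195, 0.433, 0.220 and 0.149 CPM in progenitor Mx1Cre knockouts, 3, 5, 2 and 1 counts, against 0.751, 2.20, 0.876 and 0.559 CPM in Mx1Cre controls. It had 13.2, 9.07, 7.49 and 8.70 CPM in CreER knockouts against 28.7, 13.2, 21.8 and 16.8 CPM in CreER controls. Neither pair of groups overlapped, the CreER pair by the narrowest margin, and the change was -1.57 ± 0.31 (edgeR adjusted p = 0.00419). Mx1 changed alongside, by -0.88 ± 0.22 (edgeR adjusted p = 0.0187), with 1.95, 2.43, 1.65 and 2.54 CPM in Mx1Cre knockouts against 2.33, 5.49, 3.63 and 3.63 CPM in Mx1Cre controls and 35.7, 29.6, 25.3 and 28.9 CPM in CreER knockouts against 78.8, 27.6, 70.9 and 49.4 CPM in CreER controls. Knockouts and controls overlapped in both lines.

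The sensors Ifi203 and Ifi204, of the family that binds DNA in the nucleus and cytoplasm, fell in progenitor knockouts. Ifi203 had 17.1, 42.4, 23.8 and 19.4 CPM in Mx1Cre knockouts against 31.1, 58.5, 46.8 and 46.0 CPM in Mx1Cre controls, and 84.8, 52.1, 57.8 and 60.2 CPM in CreER knockouts against 128, 84.7, 126 and 96.4 CPM in CreER controls. In both lines only the highest knockout reached the range of the controls, and the change was -0.80 ± 0.19 (edgeR adjusted p = 0.0128). Ifi204 had 3.13, 2.86, 5.62 and 5.82 CPM in Mx1Cre knockouts against 10.1, 14.8, 9.39 and 16.7 CPM in Mx1Cre controls, without overlap, and the change over both lines was -1.14 ± 0.24 (edgeR adjusted p = 0.00608). Irf9 had 44.0, 39.3, 47.5 and 26.7 CPM in Mx1Cre knockouts against 54.7, 61.6, 50.3 and 63.1 CPM in Mx1Cre controls, and 79.0, 83.6, 73.6 and 79.4 CPM in CreER knockouts against 112, 92.3, 93.9 and 94.1 CPM in CreER controls. Both lines were separate, and Irf9 fell by 0.44 ± 0.10 (edgeR adjusted p = 0.0117), close to its value in LSK cells.

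Xaf1 had 3.06, 3.03, 4.30 and 3.58 CPM in progenitor Mx1Cre knockouts against 8.49, 7.35, 4.26 and 7.54 CPM in Mx1Cre controls, and 31.3, 32.6, 23.0 and 40.5 CPM in CreER knockouts against 53.8, 28.8, 52.1 and 38.0 CPM in CreER controls (change -0.73 ± 0.17, edgeR adjusted p = 0.0154). The highest Mx1Cre knockout reached the lowest Mx1Cre control. Oas1a, a synthetase of the messenger that activates RNase L, had 11.5, 9.10, 9.81 and 12.5 CPM in Mx1Cre knockouts against 28.8, 17.2, 13.1 and 20.8 CPM in Mx1Cre controls, and 58.8, 53.8, 35.5 and 58.9 CPM in CreER knockouts against 77.4, 45.0, 78.8 and 55.0 CPM in CreER controls. The Mx1Cre groups were separate and the CreER groups overlapped. Oas1a changed by -0.62 ± 0.17 (edgeR adjusted p = 0.0375), a call lost in 10 of 25 alternative fits, with adjusted p up to 0.0878 when 1 library was left out. Ifi27l2a and Gbp3 were called in Mx1Cre mice and not over both lines: Ifi27l2a had 1.30, 1.47, 2.98 and 2.83 CPM in knockouts against 8.26, 4.22, 3.00 and 17.0 CPM in controls, and Gbp3 had 76.0, 82.1, 96.0 and 94.6 CPM in knockouts against 140.5, 133, 109 and 131 CPM in controls. Both pairs of groups were separate, and the changes were -1.96 ± 0.49 (edgeR adjusted p = 0.0253) and -0.56 ± 0.15 (edgeR adjusted p = 0.0311), and both calls were lost without Mx1Cre control 4, without knockout 1 or without knockout 2, among others, with adjusted p up to 0.107 for Ifi27l2a and 0.114 for Gbp3 when 1 library was left out. With only the 8 libraries compared the adjusted p were 0.151 and 0.081.

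Markers of other cells also moved with the knockout. Of 10 monocyte markers 4 were called lower and none higher in progenitor knockouts over both lines (7.76% of genes called, 5.5% lower). In LSK knockouts 3 of these markers were higher and none lower, a share near that of all genes (27.8% of genes called). Their sum was 2508 to 5070 CPM in progenitor Mx1Cre knockouts against 4047 to 6626 CPM in Mx1Cre controls, 775 to 1466 CPM in progenitor CreER knockouts against 884 to 1868 CPM in CreER controls, and 2002 to 2370 CPM in LSK Mx1Cre knockouts against 2013 to 2377 CPM in Mx1Cre controls. LSK CreER knockouts had a sum of 845 to 1710 CPM against 519 to 1144 CPM in CreER controls. Each of these pairs of ranges overlapped. The plasmacytoid dendritic cell sums, again without Bst2, did not overlap in 3 of the 4 pairs of groups. They were 204 to 328 CPM in progenitor Mx1Cre knockouts against 587 to 842 CPM in controls, 146 to 192 CPM in progenitor CreER knockouts against 221 to 358 CPM in controls, and 366 to 447 CPM in LSK Mx1Cre knockouts against 592 to 706 CPM in controls. LSK CreER knockouts had 293 to 383 CPM against 290.1 to 371 CPM in controls. B cell sums were also lower without overlap in progenitor knockouts, at 10.1 to 15.2 CPM against 30.9 to 51.2 CPM in controls of the Mx1Cre line, and 10.9 to 15.5 CPM against 18.002 to 29.4 CPM in controls of the CreER line. T and NK cell sums were higher in LSK Mx1Cre knockouts, at 209.8 to 319.9 CPM against 182 to 208 CPM in controls, and lower in progenitor CreER knockouts, at 123 to 162 CPM against 164 to 248 CPM in controls. The T and NK markers did not all rise in LSK Mx1Cre knockouts. Nkg7 was called higher there, by 0.60 ± 0.14, and Lck lower, by -0.89 ± 0.22 (edgeR adjusted p = 0.00397 and 0.00482). In progenitor CreER knockouts no T and NK marker tested was called. The lowest adjusted p was that of Nkg7, at -0.53 ± 0.20 (edgeR adjusted p = 0.448). Cd3d was at -0.15 ± 1.14, Lck at -0.01 ± 0.32, and Klrb1c went the other way, at 0.87 ± 0.84. Neutrophil markers summed to 2794 to 25979 CPM in progenitor Mx1Cre knockouts against 1252 to 15922 CPM in Mx1Cre controls. Their sum was 528 to 2763 CPM in progenitor CreER knockouts against 310.3 to 706 CPM in CreER controls. LSK cells had 999 to 2430 CPM in Mx1Cre knockouts against 429 to 2545 CPM in controls, and 157 to 1249 CPM in CreER knockouts against 117 to 194 CPM in controls. The neutrophil ranges overlapped in every pair. The part of all these markers in the members' changes was not tested.

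Between the populations, in a fit that ignored the mouse, 6 members were called higher in LSK than in progenitor controls and none lower. That was 15.4% of members, against 34.5% of 14459 genes called and 17.3% called higher, a share near that of all genes in this fit. The median difference was 0.24. Each mouse gave both libraries, and with the mouse as a block 17 of the 39 members were higher and 1, the nucleotide kinase Cmpk2, was lower (38.8% of genes called with the block, 19.6% higher and 19.2% lower). With the block the share of members called higher was thus above that of all genes. Without progenitor CreER control 1 the count without the block was 10. Ifi203 had 86.1, 99.8, 104 and 114 CPM in LSK Mx1Cre controls against 31.1, 58.5, 46.8 and 46.0 CPM in the progenitor cells of the same mice, and 262, 166, 222 and 220.3 CPM in LSK CreER controls against 128, 84.7, 126 and 96.4 CPM in their progenitor cells. It was higher in LSK cells in all 8 control mice, by 1.07 ± 0.17 (edgeR adjusted p = 1.36e-05). Ifi44 had 9.92, 8.86, 8.29 and 9.37 CPM in LSK Mx1Cre controls against 5.56, 3.72, 1.13 and 2.61 CPM in their progenitor cells, and 155, 66.3, 162 and 88.6 CPM in LSK CreER controls against 88.0, 37.0, 81.8 and 48.7 CPM in their progenitor cells, again higher in 8 of 8 mice (difference 1.15 ± 0.27, edgeR adjusted p = 0.00131). Xaf1 was higher by 0.55 ± 0.16 (edgeR adjusted p = 0.00692) and Ifit2 by 0.46 ± 0.13 (edgeR adjusted p = 0.00767), both in 8 of 8 mice, and Cmpk2 was higher in LSK cells in 1 of 8.

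The CreER controls came in the same order by summed level in both populations. CreER control 1 had the highest sum of its group in both populations, 6590 CPM in LSK and 5576 CPM in progenitor cells, and CreER control 2 the lowest, 3979 and 3281 CPM. The LSK sum was 1.11, 1.39, 1.02 and 1.29 times the progenitor sum in Mx1Cre knockouts 1 to 4, and 1.21, 1.08, 1.15 and 1.01 times in Mx1Cre controls. The ratio was 1.26, 0.978, 1.82 and 1.38 in CreER knockouts, and 1.18, 1.21, 1.25 and 1.24 in CreER controls. Both extremes of the CreER knockouts, mice 2 and 3, were those whose LSK libraries went against the sex labels.

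**Figure D5:**
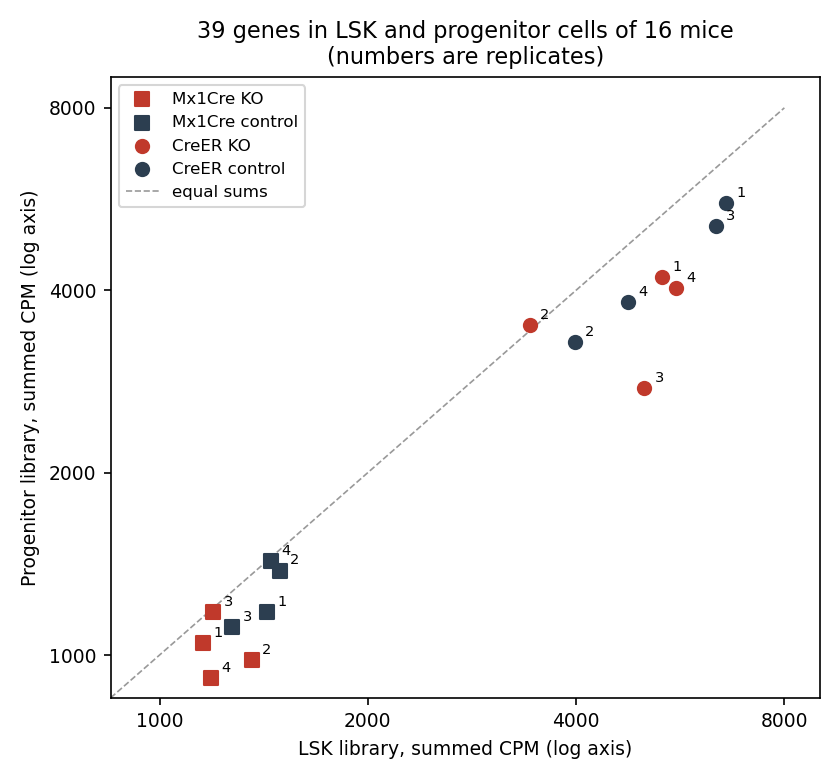
Summed CPM of the 39 members in the LSK library (horizontal axis) and the progenitor library (vertical axis) of each of the 16 mice; squares are Mx1Cre and circles CreER mice, colours mark knockouts and controls, and the dashed line marks equal sums. Mx1Cre mice lie between 1156 and 1492 CPM in LSK cells and CreER mice between 3429 and 6590 CPM, and 15 of the 16 mice lie on the side of higher LSK sums.

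The knockout effect differed between LSK and progenitor cells for no member by edgeR without the block, where 7 members had an unadjusted p under 0.05, DESeq2 called 1 and limma-voom 0 (2.62% of genes called). Without LSK CreER control 3, LSK Mx1Cre knockout 2, progenitor CreER control 2, progenitor Mx1Cre control 3, or progenitor Mx1Cre knockout 2 or 4, 1 member was called. With the mouse as a block 5 were called, all less negative or more positive in LSK cells (5.34% of genes called with the block, 2.77% in that direction): Gbp3, Ifi203, Trim30a, Ifi204 and Isg15. Gbp3 had the lowest adjusted p, at a difference of 0.54 ± 0.08 (adjusted p = 0.000719, edgeR with the mouse block). The block pairs the libraries of CreER knockouts 2 and 3 as labelled, though their LSK libraries went against the labelled sex. The block fit was not repeated without these mice. The Cre line difference among controls, added after the data were seen, differed between the populations for Ifi27l2a, by -2.43 ± 0.56 as LSK minus progenitor (edgeR adjusted p = 0.0275, 1.11% of genes called, 0.429% lower). Ifi27l2a had 3.06, 4.39, 4.14 and 6.40 CPM in LSK Mx1Cre controls against 22.4, 12.4, 32.6 and 21.1 CPM in LSK CreER controls, and 8.26, 4.22, 3.00 and 17.0 CPM in progenitor Mx1Cre controls against 6.75, 7.52, 7.60 and 7.95 CPM in progenitor CreER controls. Mx1Cre controls were lower in LSK cells and overlapped CreER controls in progenitor cells. The call was lost without LSK CreER control 3, without LSK Mx1Cre control 1, 2 or 3, without progenitor CreER control 1 or 2, and without progenitor Mx1Cre control 4 (adjusted p up to 0.105). Without progenitor CreER control 3 or Mx1Cre control 2 the count was 2, and with the mouse block Gbp3, Ifit3 and Ifi204 were called as well, all lower (4% of genes called with the block, 1.74% lower).

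Across the 39 members, the difference between the Cre lines in controls had a Pearson correlation of 0.886 between LSK and progenitor cells (Spearman 0.866), a description over genes that are not independent and over libraries of the same mice. Among knockouts it was 0.934 (Spearman 0.952). Between controls and knockouts, which are separate mice, it was 0.970 in LSK cells and 0.925 in progenitor cells.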

How the data were processed

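RNA-seq libraries of 16 mice were analysed from the deposited table of whole-number counts per gene. The authors made these counts with featureCounts on mm10, per the submitters' processing notes, from 50 ng of RNA and paired-end 80 bp reads, per the labels' protocols. Which aligner, annotation and strand setting were used is not given in the sources used here, so overlapping genes, antisense partners and close paralogs may share counts. Symbols came from RefSeq for 25275 genes. The other 1904 genes held 3.92% of counts.

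Counts were tested with edgeR 4.0.16 in R 4.3.3 (robust quasi-likelihood, TMM, the edgeR filter on low counts with a minimum count of 10 and a minimum total of 15, Benjamini-Hochberg over all genes, threshold 0.05). The 16 libraries of a population were fitted together, and all 32 for comparisons across populations. In all 15 comparisons were made, 3 of them added after the data were seen. Alternatives were DESeq2 1.42.0, limma-voom (limma 3.58.1), other size factors and filters (none, or 1 CPM in 4 libraries), sex and length terms, replicate and mouse blocks, and leaving out libraries. Labels do not say whether mice were littermates, and p-values measure the spread between these mice. Counting limits cover counting error only.

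The 39 members and all gene lists were chosen with earlier results of these data known. Members named in a comparison were those with the 4 lowest adjusted p in each direction, and library values were given for 12 members called in the most comparisons. Irf7, Ifit1, Ifit3, Isg15, Gbp3, Ifi204, Ifi27l2a and other members named beyond these were chosen after their values were seen, as were the markers Ly6a and Siglech. In simulated data with known changes the test was checked before use. LSK and progenitor libraries of a mouse are paired by the mouse in the labels, and their deviations from group means correlated over 0.1 in 14 of 16 mice. The others were CreER knockouts 2 (r = -0.152) and 3 (r = -0.0576), whose LSK libraries went against the labelled sex.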

Additional observations from a re-analysis of the deposited data

Results flagged for a closer look

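Of 104 groups of 4 libraries examined for a library far from the other 3, 4 were picked out, where chance alone picks about 1 in 20. Mx2 had 15.3 CPM in LSK CreER control 2, against 29.3 to 31.7 CPM in the others. Irf9 had 112 CPM in progenitor CreER control 1, against 92.3 to 94.1 CPM in the others. Samd9l had 208 CPM in LSK CreER control 1, against 119.7 to 134 CPM in the others, and 50.8 CPM in LSK Mx1Cre control 4, against 37.3 to 38.7 CPM in the others. CreER controls 1 and 2 also had the highest and the lowest summed level of the 39 members among the CreER controls.

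The difference between Mx1Cre and CreER controls was itself different in LSK and progenitor cells for Ifi27l2a, by -2.43 on the log2 scale as LSK minus progenitor (edgeR adjusted p = 0.0275), a comparison added after the data were seen.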

How the results depend on the processing

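No member that was called in a comparison changed direction there in any alternative. The values of members that were not called were not examined for this. The counts of members in the Cre line comparisons kept within 1.5 times: leaving out 1 library gave 38 to 38 in LSK controls and knockouts, 36 to 37 in progenitor controls and 36 to 38 in progenitor knockouts. Knockout counts moved more, and the cause was not tested. Leaving out 1 library gave 5 to 9 (LSK, both lines), 0 to 1 (LSK CreER), 4 to 10 (LSK Mx1Cre), 0 to 1 (LSK difference between lines), 7 to 11 (progenitor, both lines), 0 to 0 (progenitor CreER and progenitor difference between lines) and 3 to 8 (progenitor Mx1Cre). Across populations it gave 5 to 10 for LSK against progenitor controls, 0 to 1 for the difference of knockout effects and 0 to 2 for the difference of Cre line effects.

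DESeq2 called 1 member in LSK CreER knockouts, 11 in LSK Mx1Cre knockouts (2 higher, 9 lower), 1 for the LSK difference between lines, 14 in progenitor knockouts over both lines, 1 for the difference of knockout effects and 2 for that of line effects. Limma-voom called 4 in progenitor knockouts over both lines, 3 in progenitor Mx1Cre knockouts and 0 for the difference of line effects. Over both lines in progenitor cells it did not call Ifi44, Mx1, Xaf1 or Oas1a, which edgeR called. Removing a trend with exon length gave 1 in LSK CreER knockouts, 1 for the LSK difference between lines, 1 for the difference of knockout effects and 0 for that of line effects. With only the 8 libraries compared, 9 were called in LSK Mx1Cre knockouts and 2 in progenitor Mx1Cre knockouts. Without LSK CreER knockouts 2 and 3 the counts were 4 in LSK knockouts over both lines and 1 for the LSK difference between lines. Without progenitor Mx1Cre control 1 and knockout 4 they were 5 in progenitor Mx1Cre knockouts and 1 for the difference of knockout effects.

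With the mouse as a replicate block, 18 members were called between LSK and progenitor controls, 5 for the difference of knockout effects and 4 for that of line effects. Knockouts and controls share only replicate numbers, not mice: same-numbered libraries correlated over 0.1 in 9 of 16 pairs, and a replicate block gave 6 calls in LSK and 8 in progenitor knockouts over both lines, 38 and 37 between the control lines. Low counts limit Ifit3, Mx2 and Ifi44 in Mx1Cre mice.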

Other observations

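Genes of neighbouring lists, chosen with earlier results of these data known, are given as counts and values. For comparison with all lists below, 10% of all tested genes were called lower in LSK Mx1Cre than in CreER controls, and 10.9% in progenitor cells (21.7% and 25.1% in either direction). In knockouts over both lines 14.3% of all tested genes were lower in LSK and 5.5% in progenitor cells (27.8% and 7.76% in either direction). Of 13 interferon gamma type GTPases and chemokines, 11 were called lower in LSK Mx1Cre than in LSK CreER controls and 9 in progenitor cells, with none higher. Cxcl10, a chemokine for T cells, differed by -4.95 ± 0.41 in LSK and -5.12 ± 0.54 in progenitor cells on the log2 scale (edgeR adjusted p = 1.53e-06 and 1.69e-05). In knockouts over both lines 6 of the 13 were lower in LSK cells and 2 in progenitor cells, with Iigp1, an immunity-related GTPase, at -1.59 ± 0.33 and -2.45 ± 0.55. Of 12 genes of MHC class I presentation, 4 were lower and none higher in LSK Mx1Cre controls and 2 were lower in progenitor Mx1Cre controls. In knockouts 4 were lower and 1 was higher in LSK cells, and 6 were lower in progenitor cells. Tap1, a subunit of the peptide transporter, was at -0.48 ± 0.08 in LSK and -0.64 ± 0.11 in progenitor knockouts (edgeR adjusted p = 0.000308 and 0.00127), and H2-K1, a heavy chain, at -0.40 ± 0.08 and -0.53 ± 0.13.

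Among other interferon-stimulated genes outside the set, 25 of 30 tested were lower and 1 higher in LSK Mx1Cre controls, with a median of -1.28, and 21 of 29 were lower in progenitor Mx1Cre controls, with a median of -1.18. Ifitm3, an inhibitor of viral entry, differed by -1.77 ± 0.15 between the LSK controls and was higher in LSK knockouts by 0.53 ± 0.10 (edgeR adjusted p = 0.00116). Of 13 tested genes of nucleic acid sensing upstream of interferon, 4 were lower and 1 higher in LSK Mx1Cre controls, and 3 lower and 2 higher in progenitor Mx1Cre controls. Ddx58, the RNA sensor RIG-I, differed by -2.43 ± 0.24 in LSK and -3.03 ± 0.28 in progenitor cells. Of 10 negative regulators, 2 were lower and 2 higher in Mx1Cre controls of each population, and Socs1, an inhibitor of JAK kinases, was at -0.81 ± 0.19 in LSK and -0.85 ± 0.23 in progenitor knockouts. Irf8 was at -1.45 ± 0.17 in progenitor knockouts (edgeR adjusted p = 4.31e-05), beside the lower monocyte markers there.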
